A study of Homo sapiens with 15 samples.

Results

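The comparison described here set IGROV-CP20 cells that received cisplatin in the presence of Tranilast against untreated IGROV-CP20 cells, and so asked which of the transcript changes seen under cisplatin were present when the drug was also given. Its members were assigned by their labels and are 6 libraries, 3 for each group, of 15 in the series. The comparison and the gene lists below were chosen with earlier results of these data known. Counts within the lists therefore describe these data and are not independent tests. IGROV-CP20 is an ovarian cancer cell line selected for resistance to cisplatin, and all 5 conditions of the series used this line. The untreated cells received neither agent. The Tranilast plus cisplatin cells were kept for 24 h with 10 µM Tranilast alone and then for 24 h with 50 µM cisplatin, and a group with 50 µM cisplatin for 24 h alone is used below as a reference. No group received Tranilast without cisplatin, so the effect of the drug on its own cannot be told apart from its effect under cisplatin, and the model is 1 cell line in culture.

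Cisplatin is a platinum compound that binds purine bases of DNA and links neighbouring bases within a strand or across strands. The adducts block DNA and RNA polymerases and are removed by excision repair and by recombination-linked repair, while the damage signal acts through p53 and the cell cycle kinases. Platinum enters and leaves cells partly by the carriers and chaperones that handle copper. Tranilast is an anti-allergic drug that is also known to inhibit fibrosis.

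Total counts were 2691832 to 3392054 in the untreated libraries, 2164344 to 3517041 with Tranilast plus cisplatin and 2171154 to 2488037 with cisplatin alone. Transcripts of the 2 mitochondrial rRNA genes took 1.79% to 2.20% of the counts in untreated cells, 2.10% to 2.53% with Tranilast plus cisplatin and 3.41% to 13.7% with cisplatin alone, where replicate 1 had the highest share and stood apart. Of 11 ovarian carcinoma and epithelial markers, 4 (EPCAM, KRT8, KRT18 and KRT19) had enough counts to be tested, whereas PAX8, MUC16, KRT7 and FOLR1 were at 0 counts in all 9 libraries and WT1, MSLN and CLDN4 had at most 1 count in any of them. The summed level of that list was 144.7 to 150.9 CPM (counts scaled to a common library size with TMM factors) in untreated cells and 139.8 to 165.1 with Tranilast plus cisplatin, although EPCAM itself fell (41.6 against 23.7 CPM, log2 fold change -0.81, adjusted p = 0.0166). In such bulk samples fewer cells expressing a gene and less RNA per cell cannot be told apart.

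Of 11113 genes tested, 271 (2.44%) were higher and 629 (5.66%) were lower with Tranilast plus cisplatin than in untreated cells at an adjusted p under 0.05 (edgeR quasi-likelihood test on all 15 libraries, Benjamini-Hochberg adjustment), which is 8.1% of the genes in either direction. The decreases were larger than the increases. The median log2 fold change was 1.06 among the genes that rose and -1.41 among those that fell, and 6 genes rose and 159 fell by more than 4-fold. Cisplatin alone against the same untreated libraries called 4967 genes (44.7%), of which 2345 were higher and 2622 lower, a balance that depended on the scaling (1019 higher and 3351 lower with library sizes alone). The spread used for these tests is shared by the 15 libraries, and the libraries of the cisplatin group differ from each other far more than those of either group compared here: the chi-square per degree of freedom between replicates was 2.36 to 3.59 in untreated cells, 2.36 to 2.95 with Tranilast plus cisplatin and 9.02 to 49.5 with cisplatin alone. The other groups in the fit were at 3.755 to 49.65 with Telmisartan plus cisplatin and at 4.303 to 5.74 with Amphotericin B plus cisplatin. When only the 6 libraries of the comparison were fitted, 1869 genes were higher and 2119 lower of 10965 tested. Of the 900 genes called on 15 libraries, 896 were tested on the 6 libraries, and all 896 were called there in the same direction. The count from the 6 libraries is given beside most gene groups below. The reference for the counts of each group is the share over all genes tested. It was 2.44% higher and 5.66% lower on the 15 libraries, and 1869 higher and 2119 lower of 10965 on the 6. Leaving out 1 of the untreated libraries 1, 2 or 3 left 117, 120 or 102 higher and 329, 339 or 299 lower genes, leaving out Tranilast plus cisplatin library 1, 2 or 3 left 88, 138 or 168 higher and 201, 292 or 359 lower, and leaving out cisplatin library 1 raised the counts to 566 and 1035.

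**Figure D1:**
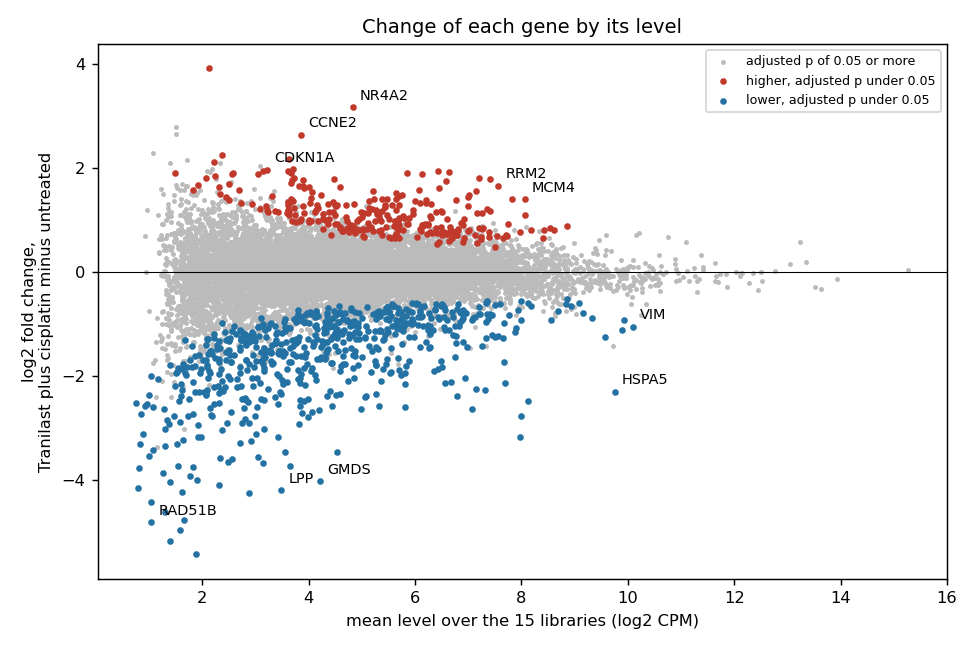
The log2 fold change of each of the 11113 genes, Tranilast plus cisplatin minus untreated, is plotted against its mean level over the 15 libraries in log2 CPM, with the 271 higher genes in red and the 629 lower genes in blue. Decreases reach further from 0 than increases, and HSPA5 lies among the most abundant of the genes that fell.

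The 6 largest increases were picked among called genes with a mean level of at least 3 log2 CPM and no overlap between the libraries of the 2 groups. The separation of the groups in these genes was thus set by that rule. The 6 were cell cycle and signalling genes. NR4A2, an orphan nuclear receptor of the immediate early class, was at 2.55, 4.32 and 3.56 CPM in the untreated libraries and at 47.6, 27.0 and 21.4 CPM with Tranilast plus cisplatin (log2 fold change 3.16 ± 0.37, the error being the standard error throughout, adjusted p = 0.000142). CCNE2, the cyclin E2 that drives entry into S phase with CDK2, was at 1.28, 3.45 and 4.07 CPM against 26.1, 13.6 and 17.6 CPM (2.63 ± 0.51, adjusted p = 0.00334). By that rule the libraries of the 2 groups did not overlap for either gene. GPER1, a membrane receptor for estrogen, rose by 2.17 ± 0.41 and ACAP3, a GTPase-activating protein for Arf proteins, by 1.94 ± 0.44 on the log2 scale (adjusted p = 0.00303 and 0.0101). Inhibitors of the cyclin-dependent kinases stood beside these cyclins: CDKN2C, encoding p18, was at 4.46, 4.89 and 1.53 CPM in untreated cells and 17.9, 12.3 and 12.6 CPM with Tranilast plus cisplatin (1.97 ± 0.38, adjusted p = 0.00326). CDKN1A, the p53 target that encodes p21, was at 3.83, 3.74 and 6.11 CPM against 18.2, 19.6 and 16.5 CPM (1.96 ± 0.35, adjusted p = 0.00215), and every treated library was above every untreated library, as the rule required. CCNE2, GPER1 and ACAP3 overlap other tested genes on the opposite strand (NDUFAF6 and INTS8, C7orf50, and PUSL1), and the strand setting of the counting is not given in the sources used here.

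The 6 largest decreases, picked by the same rule of level and no overlap, were all genes that span more than 400 kb of the genome. LPP, a LIM-domain protein of focal adhesions (chromosome 3, 188153284 to 188890671, plus strand, GENCODE 29 on GRCh38), was at 29.3, 35.4 and 43.3 CPM in untreated cells and at 1.12, 1.36 and 2.93 CPM with Tranilast plus cisplatin (log2 fold change -4.21 ± 0.64, adjusted p = 0.000638). GMDS, which makes GDP-fucose precursors for glycosylation (chromosome 6, 1623806 to 2245692, minus strand), was at 63.1, 65.0 and 56.3 CPM against 1.49, 4.36 and 4.74 CPM (-4.03 ± 0.66, adjusted p = 0.00108). EXOC4, a subunit of the exocyst complex that tethers secretory vesicles (chromosome 7, 133253073 to 134066589, plus strand), was at 70.8, 67.0 and 60.8 CPM against 4.47, 6.81 and 6.32 CPM (-3.46 ± 0.46, adjusted p = 0.000363). The groups were separated by a wide gap in each of these genes. DIAPH2, a formin that nucleates actin filaments, fell by 3.73 ± 0.54 on the log2 scale, and TBC1D22A and TBC1D5, which carry domains of Rab GTPase-activating proteins, fell by 3.68 ± 0.53 and 3.57 ± 0.62 (adjusted p = 0.000504, 0.000487 and 0.00163). No increase or decrease among these 12 genes lost its call under any alternative, except that ACAP3 lost it without Tranilast plus cisplatin library 1 or untreated library 3.

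**Figure D2:**
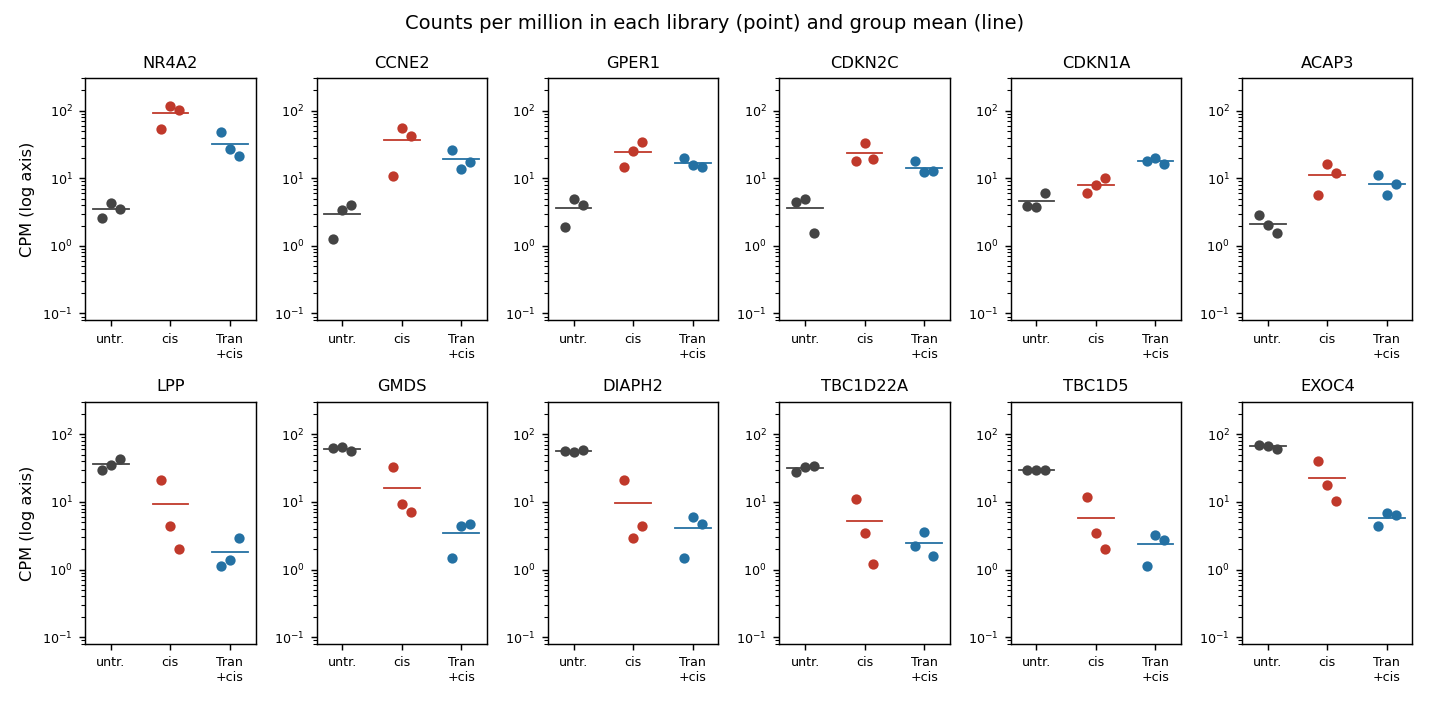
Levels in CPM of the 12 genes with the largest changes are shown on a log axis, with a point for each library and a line for the mean of each group of 3. The untreated and the Tranilast plus cisplatin points are apart in all 12 genes, which the choice of these genes required. The cisplatin points of the 6 lower genes spread over a range that includes the highest values of replicate 1.

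Genes that fell were often long. Among 290 tested genes of over 300 kb, 163 (56.2%) were lower and 0 were higher with Tranilast plus cisplatin, and their median log2 fold change was -1.47, against -0.01 over all genes tested. The libraries of the 2 groups did not overlap for 251 of the 290 in the lower direction and for 2 in the higher, where 25.1% and 21.1% of all genes tested did so. The bin of 100 to 300 kb held 206 lower genes (13.3%) and 5 higher genes of 1552 with a median of -0.38, and the medians of the bins of 30 to 100 kb, 10 to 30 kb and under 10 kb were -0.02, 0.12 and 0.07. Fitted on the 6 libraries alone, 83.8% of the genes over 300 kb were lower, and 2 were higher, namely PALLD and SNHG14. Within the long genes the median went from -1.10 at 300 to 400 kb (134 genes) to -1.74 at 400 to 500 kb (66 genes) and -2.09 at 500 to 700 kb (44 genes), and was -1.89 over 700 kb (46 genes), in bins that were chosen after the data were seen. Long genes were also less abundant, with a median level of 3.10 log2 CPM over 300 kb against 4.53 under 10 kb, and among the 38 genes over 300 kb with a mean of at least 5 log2 CPM the median was -0.70 with 16 lower and 0 higher.

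The same bins differed between the treated groups. With cisplatin alone, 65.8% of the genes of 100 to 300 kb and 77.6% of those over 300 kb were lower than in untreated cells (medians -1.17 and -1.90), and 42.9% of the genes under 10 kb were higher (median 0.65). The direct test of Tranilast plus cisplatin against cisplatin alone called 2462 genes (22.2%). In that test 62 of the 2503 genes under 10 kb were higher and 725 (29%) lower (median -0.49). With library sizes alone these counts were 171 and 296. Of the 1552 genes of 100 to 300 kb 557 were higher and 23 lower (median 0.72), while over 300 kb 46 were higher and 7 lower (median 0.36). The median of this difference was 0.80 at 300 to 400 kb, 0.06 at 400 to 500 kb, -0.18 at 500 to 700 kb and -0.11 over 700 kb. The 7 lower genes, named because they are few, were CADM2, EXOC4, FGGY, GMDS, LINC01481, LPP and PTPRK. Differences from cisplatin alone depend on the scaling: with library sizes alone and no TMM factors the median over all genes moved from 0.02 to 0.46, and 2582 genes were higher and 397 lower in place of 1169 and 1293. Against untreated cells the same change of scaling moved the median of all genes from -0.01 to 0.08, and that of the genes over 300 kb from -1.47 to -1.38.

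**Figure D3:**
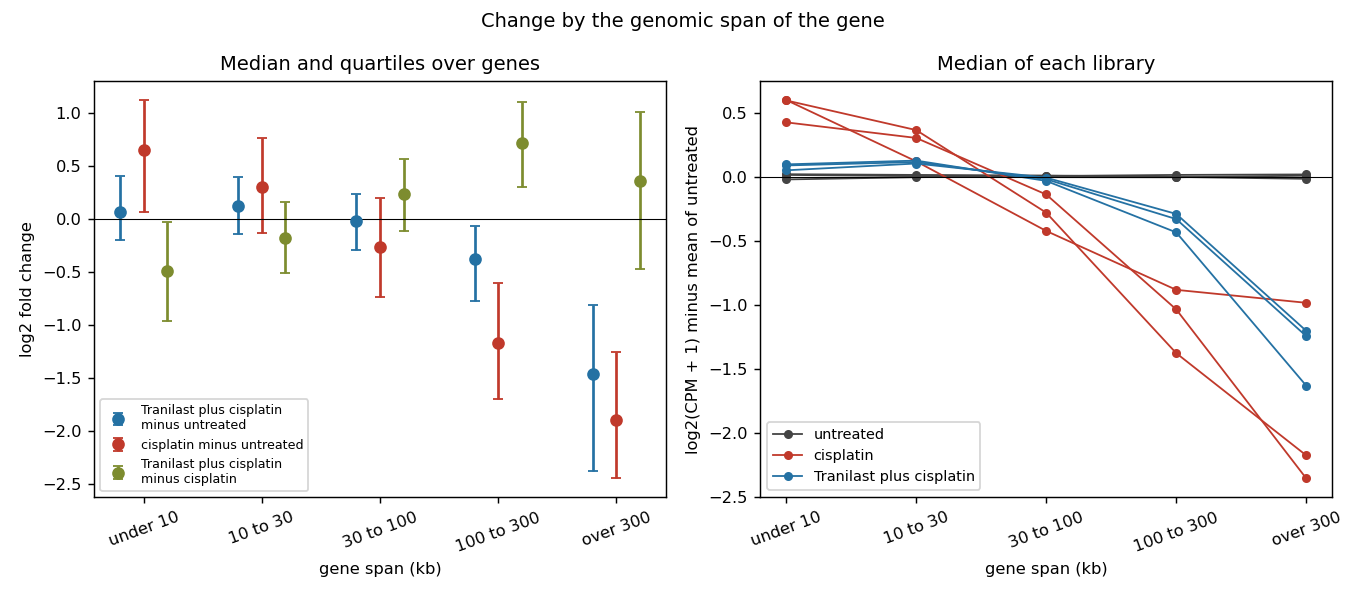
The left panel gives the median and the quartiles over genes of the log2 fold change in 5 bins of gene span, for Tranilast plus cisplatin minus untreated (blue), cisplatin minus untreated (red) and Tranilast plus cisplatin minus cisplatin (green). The right panel gives the median of each library as log2(CPM + 1) minus the mean of the untreated libraries, where the 3 Tranilast plus cisplatin libraries lie between -0.03 and 0.13 up to 100 kb and lie between -1.63 and -1.20 over 300 kb.

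The 5 genes over 100 kb that rose, named because they are few, were CCND3, GINS3, POLD3, RFC3 and RMI2, which encode a cyclin, a subunit of the replicative helicase, a subunit of DNA polymerase delta, a subunit of the clamp loader and a partner of the Bloom helicase. POLD3, which spans 175 kb, was at 28.1, 25.03 and 28.3 CPM in untreated cells and 78.2, 70.6 and 65.4 CPM with Tranilast plus cisplatin (1.39 ± 0.36, adjusted p = 0.0211). GINS3, POLD3 and RFC3 belong to the group of genes described next.

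Genes of the G1/S transition and of DNA replication rose in large part. Of 43 tested members, 33 were higher and 0 lower with Tranilast plus cisplatin, with a median log2 fold change of 1.13, and on the 6 libraries 40 were higher and 0 lower. The count of 33 became 21 to 24 when an untreated library was left out and 22 to 27 when a Tranilast plus cisplatin library was left out. The members with the smallest adjusted p were CDT1, the licensing factor that loads the helicase (49.5 against 173 CPM, 1.80 ± 0.20, adjusted p = 7.44e-05), RRM2, the small subunit of ribonucleotide reductase (73.9 against 233 CPM, 1.65 ± 0.18, adjusted p = 7.44e-05), TK1, the thymidine kinase (30.5 against 92.9 CPM, 1.60 ± 0.19, adjusted p = 0.00015), and MCM5, a subunit of the MCM helicase (59.3 against 165 CPM, 1.48 ± 0.19, adjusted p = 0.000201). The 3 untreated libraries of CDT1 were at 55.8, 49.2 and 43.5 CPM and the 3 treated libraries at 193, 174 and 151 CPM, and the groups did not overlap. With cisplatin alone 36 of the 43 were higher (median 1.23), and in the direct test 1 was higher and 5 were lower with Tranilast plus cisplatin than with cisplatin alone, a median of -0.15 that became 0.30 with library sizes alone. E2F transcription factors act on many of these promoters. A motif search on both strands for TTTCCCGC, TTTCGCGC, TTTGCCGC or TTTGGCGC in RefSeq windows of 300 bases, 250 before and 50 after each start site, found it in 21 of 35 members with a window, and in 7.08% of the 8333 tested genes with a window. Among the base excision repair genes described below, 1 of 17 with a window held it, namely UNG, against the 7.08% of tested genes. CDT1 is shown because it had one of the smallest adjusted p values of the list, and UNG as that 1 gene. Capitals mark the motif, which starts at position -35 from the start site in CDT1 (chr16:88803539-88803838, plus strand, GRCh38.p14) and at -63 in UNG (chr12:109097922-109098221, plus strand).
CDT1: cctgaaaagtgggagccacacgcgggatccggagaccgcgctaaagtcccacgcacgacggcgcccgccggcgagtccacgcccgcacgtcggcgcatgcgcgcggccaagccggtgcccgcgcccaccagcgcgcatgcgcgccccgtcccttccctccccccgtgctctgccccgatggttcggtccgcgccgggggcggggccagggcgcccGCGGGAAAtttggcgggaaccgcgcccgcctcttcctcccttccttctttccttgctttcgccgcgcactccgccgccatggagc
UNG: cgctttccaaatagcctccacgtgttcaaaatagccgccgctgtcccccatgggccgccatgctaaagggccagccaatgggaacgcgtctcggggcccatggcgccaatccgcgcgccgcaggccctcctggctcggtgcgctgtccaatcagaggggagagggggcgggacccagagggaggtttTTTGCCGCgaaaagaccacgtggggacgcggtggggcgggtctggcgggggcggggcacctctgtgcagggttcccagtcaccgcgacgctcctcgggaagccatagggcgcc

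The base excision repair enzymes, which remove single damaged bases and fill the gap, had 5 higher and 0 lower of 21 tested members (median 0.38; 8 higher and 0 lower on the 6 libraries). UNG, the uracil DNA glycosylase, was at 43.4, 46.9 and 49.9 CPM in untreated cells and at 155, 139 and 115 CPM with Tranilast plus cisplatin (1.54 ± 0.20, adjusted p = 0.000303). FEN1, the flap endonuclease that also matures Okazaki fragments, was at 26.1, 28.5 and 23.4 CPM against 109, 83.4 and 107 CPM (1.94 ± 0.29, adjusted p = 0.000638). NTHL1, APEX2 and MBD4 were the others that rose, by 1.03, 0.97 and 0.71 on the log2 scale. The count of 5 became 3 without any 1 of the untreated or Tranilast plus cisplatin libraries, and APEX2 lost its call in 8 alternatives (adjusted p 0.0864 to 0.18 without 1 of the 6 libraries). UNG and FEN1 were lower than with cisplatin alone by -0.89 and -1.15 (adjusted p = 0.00532 and 0.00819), calls that were lost with library sizes alone (adjusted p = 0.181 and 0.114). FEN1 overlaps FADS2 on the same strand, and NTHL1 overlaps TSC2 on the opposite strand.

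Fanconi, recombination and translesion genes, which act on crosslinks and stalled forks, had 9 higher and 1 lower of 34 members (median 0.38), and 20 higher and 4 lower on the 6 libraries. The count of 9 was 1 to 2 without an untreated library, 2 to 5 without a Tranilast plus cisplatin library and 9 to 13 without a cisplatin library, with 13 without replicate 1, and it was 1 with library sizes alone. FANCA, of the Fanconi core complex, was at 9.88, 9.78 and 10.7 CPM against 26.1, 21.5 and 20.1 CPM (1.14 ± 0.26, adjusted p = 0.0101). EME1, a subunit of a structure-specific nuclease, rose by 1.19 ± 0.28 (adjusted p = 0.0129). The member that fell was RAD51B, a recombination gene that spans 910 kb. It was at 5.74, 8.06 and 5.60 CPM in untreated cells and had at most 1 read in any Tranilast plus cisplatin library (adjusted p = 0.000504).

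Nucleotide excision repair, the pathway that cuts out platinum links within a strand, had 2 higher and 0 lower of 25 members (median -0.14), where 2.44% of all genes tested were higher. On the 6 libraries 5 members were higher and 6 lower. The 2 that rose, RPA2 of the single-strand binding complex (65.4, 76.5 and 60.3 CPM against 166, 164 and 154 CPM, 1.26 ± 0.22, adjusted p = 0.00177) and LIG1, the DNA ligase of replication (0.75 ± 0.17, adjusted p = 0.0102), also act in DNA replication. MNAT1, an assembly factor of the CDK-activating kinase within TFIIH that spans 235 kb, was at 113, 120 and 123 CPM against 51.0, 46.3 and 62.1 CPM without passing the test (-1.15 ± 0.39, adjusted p = 0.0804). RPA1 was at 0.49 ± 0.17 (adjusted p = 0.0908).

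Of 26 p53 target genes, 1 passed the test, CDKN1A, where 2.44% of all genes tested were higher. The median of the list was 0.31, and on the 6 libraries 13 were higher and 2 lower. PLK3, a stress-responsive kinase, BAX, a pore-forming protein of apoptosis, and AEN, an apoptosis-linked nuclease, had log2 fold changes of 0.88 ± 0.29, 0.54 ± 0.19 and 0.74 ± 0.26 (adjusted p = 0.0764, 0.0864 and 0.0917), with no overlap between the groups. CDKN1A was at 6.16, 7.85 and 9.93 CPM with cisplatin alone and was higher with Tranilast plus cisplatin (1.16 ± 0.35, adjusted p = 0.0257).

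The calls among mitotic and histone genes on the 15 libraries were all decreases, while the 6 libraries also gave increases among the mitotic genes. Of 40 genes of G2/M and mitosis, 0 were higher and 8 lower (median -0.25; 9 higher and 18 lower on the 6 libraries), and 3 were lower without any 1 of the untreated or Tranilast plus cisplatin libraries. PLK1, the polo-like kinase of mitotic entry, was at 85.8, 98.1 and 123 CPM against 47.3, 61.1 and 46.0 CPM (-0.99 ± 0.19, adjusted p = 0.00387). HMMR and DLGAP5, which act on the spindle, fell by 0.92 ± 0.18 and 0.85 ± 0.16, and CCNB1, cyclin B1, by 0.62 ± 0.16 (adjusted p = 0.00343, 0.00324 and 0.026), of which CCNB1 lost its call in 8 alternatives. Of 13 histone genes 3 were lower (median -0.79; 0 higher and 7 lower on the 6 libraries): HIST1H1C (170, 159 and 134 CPM against 70.0, 64.9 and 66.3 CPM, adjusted p = 0.000504), HIST1H1E and HIST1H2AC. The count of 3 became 1 to 3 without an untreated library and 1 to 2 without a Tranilast plus cisplatin library. Replication-dependent histone mRNAs lack a poly(A) tail, so an oligo(dT)-primed count measures their polyadenylated forms.

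Chaperones and folding enzymes of the endoplasmic reticulum were mostly lower. These proteins fold and check secreted and membrane proteins, and the unfolded protein response raises many of them through ATF6 and XBP1. Of 29 tested members, 18 were lower and 0 higher with Tranilast plus cisplatin (median -1.07), and on the 6 libraries 20 were lower and 1 higher. The count of 18 was 15 to 16 without an untreated library and 11 to 16 without a Tranilast plus cisplatin library. HSPA5, the Hsp70 of the endoplasmic reticulum (BiP), was at 4524, 4140 and 4370 CPM in untreated cells and 675, 966 and 991 CPM with Tranilast plus cisplatin (-2.31 ± 0.26, adjusted p = 8.95e-05). HSP90B1, the Hsp90 of the same compartment, was at 930, 917 and 866 CPM against 117, 173 and 192 CPM (-2.49 ± 0.31, adjusted p = 0.000178). SEL1L, an adaptor of degradation from the endoplasmic reticulum, was at 92.1, 92.1 and 96.0 CPM against 8.93, 21.5 and 20.1 CPM (-2.44 ± 0.34, adjusted p = 0.000417). CANX, the lectin chaperone calnexin, fell by 1.45 ± 0.22 (adjusted p = 0.000613). HSPA5 spans 6.48 kb and HSP90B1 23.5 kb, and the part of span in the decrease of this group was not tested. With cisplatin alone 21 of the 29 were lower and 2 higher (median -1.22), and the direct test found 3 higher and 3 lower (median 0.07, and 0.58 with library sizes alone). For HSPA5 and HSP90B1 that difference was 0.64 ± 0.25 and -0.44 ± 0.30 (adjusted p = 0.072 and 0.296).

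The endoplasmic reticulum stress element is the site that ATF6 and its partners bind in such promoters. The form CCAAT and CCACG with 9 bases of any kind between them, searched on both strands in the same RefSeq windows, was found in 8 of 28 members with a window and in 0.18% of the 8333 tested genes with a window. The 8 were CALR, CANX, CRELD2, ERO1B, HSP90B1, HSPA5, PDIA6 and XBP1. HSPA5 and HSP90B1 are shown as the most abundant members that fell. Capitals mark the element, at position -66 from the start site in HSPA5 (chr9:125241294-125241593, minus strand, GRCh38.p14) and at -194 and -89 in HSP90B1 (chr12:103930160-103930459, plus strand), the latter on the opposite strand.
HSPA5: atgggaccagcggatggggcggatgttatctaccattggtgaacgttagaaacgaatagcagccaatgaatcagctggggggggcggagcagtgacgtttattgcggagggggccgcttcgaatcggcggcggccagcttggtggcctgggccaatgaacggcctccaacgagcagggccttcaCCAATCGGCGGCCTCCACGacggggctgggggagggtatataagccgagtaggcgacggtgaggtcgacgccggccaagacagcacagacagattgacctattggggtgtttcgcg
HSP90B1: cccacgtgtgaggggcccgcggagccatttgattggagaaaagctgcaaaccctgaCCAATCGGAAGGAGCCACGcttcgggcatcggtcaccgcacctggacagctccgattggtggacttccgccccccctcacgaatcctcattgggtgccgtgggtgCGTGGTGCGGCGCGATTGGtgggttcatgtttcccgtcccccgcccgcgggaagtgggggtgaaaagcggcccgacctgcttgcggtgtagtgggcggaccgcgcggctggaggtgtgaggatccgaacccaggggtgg

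**Figure D4:**
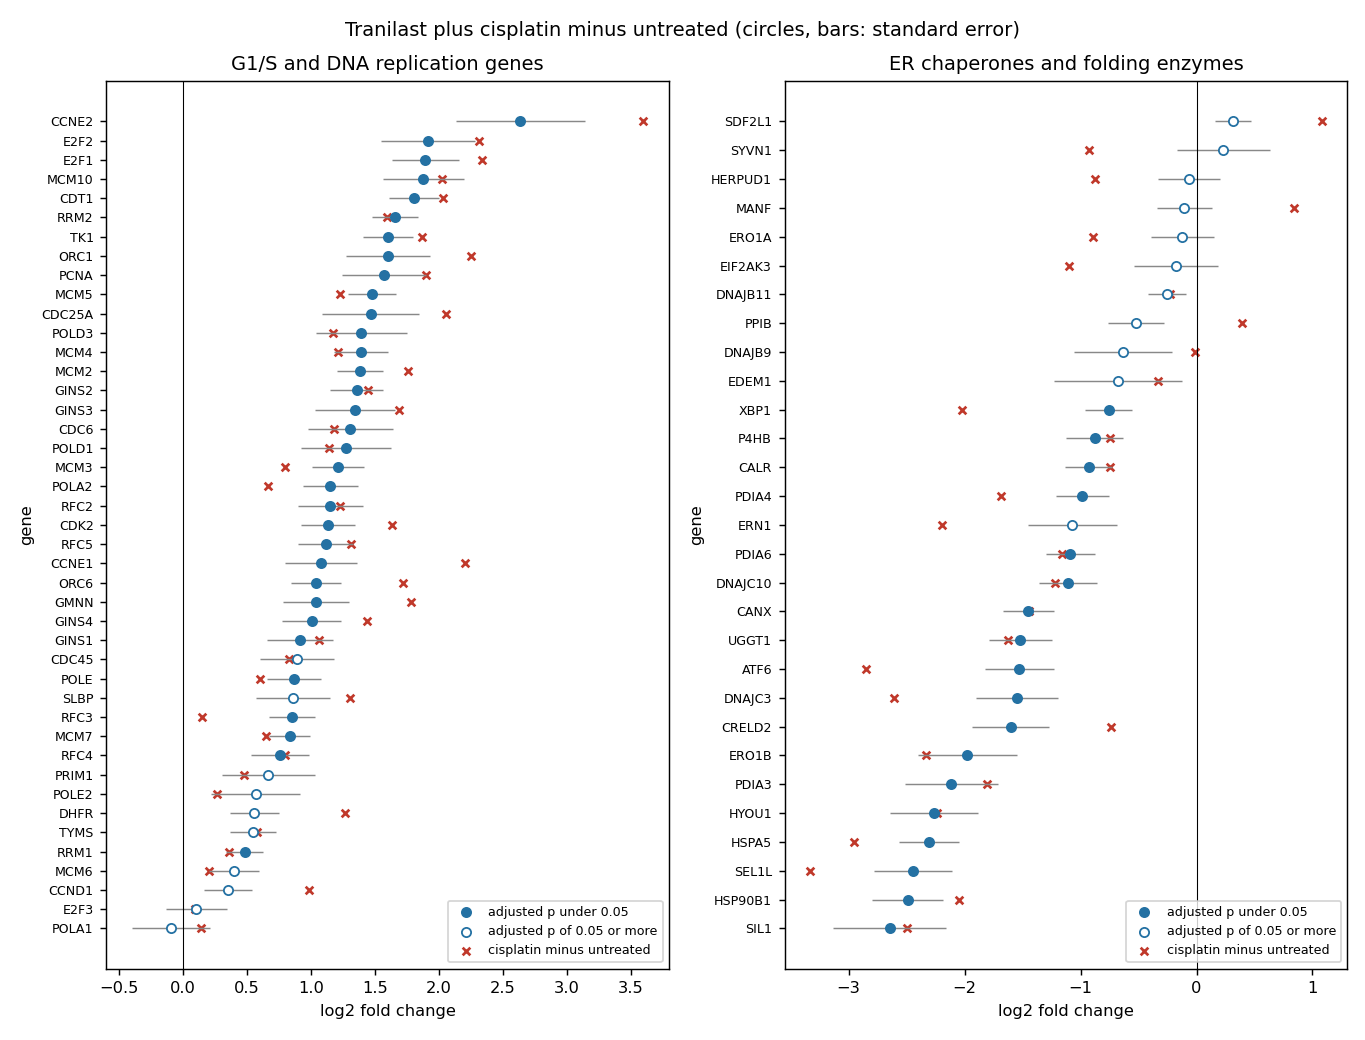
Log2 fold changes of the 43 G1/S and DNA replication genes (left) and the 29 chaperones and folding enzymes (right) are shown as circles with standard errors for Tranilast plus cisplatin minus untreated, filled where the adjusted p is under 0.05, and as red crosses for cisplatin minus untreated, which shares the untreated libraries. The 33 filled circles on the left are above 0 and the 18 on the right are below 0.

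Cell adhesion and matrix genes, which anchor cells to each other and to their surroundings, had 13 lower and 1 higher of 23 members (median -1.27; 16 lower and 3 higher on the 6 libraries). The 13 were 10 to 11 without an untreated library and 9 to 11 without a Tranilast plus cisplatin library. With cisplatin alone 17 of the 23 were lower and 3 higher than in untreated cells (median -1.94). The direct test found 4 higher and 0 lower with Tranilast plus cisplatin (median 0.47, and 0.95 with library sizes alone). SEMA3E, a secreted semaphorin, was at 156, 159 and 155 CPM against 34.2, 47.7 and 40.2 CPM (-1.94 ± 0.22, adjusted p = 8.6e-05), and SEMA3A at 85.4, 80.3 and 78.9 CPM against 8.56, 9.81 and 13.3 CPM (-2.92 ± 0.35, adjusted p = 0.00015). CDH2, N-cadherin, was at 78.1, 69.1 and 82.0 CPM against 8.93, 13.6 and 11.7 CPM (-2.72 ± 0.36, adjusted p = 0.000352). LAMB1, a laminin chain, fell by 2.15 ± 0.30 (adjusted p = 0.000397). SEMA3E, SEMA3A and CDH2 span 286, 537 and 226 kb and LAMB1 79.5 kb, and the part of span in the decrease of this group was not tested. The member that rose was COL1A1, the collagen of connective tissue and a fibroblast marker (6.38, 8.63 and 6.62 CPM against 32.7, 20.7 and 14.9 CPM, 1.63 ± 0.35, adjusted p = 0.00654). The summed level of the 6 fibroblast markers was 7.92 to 9.72 CPM in untreated cells and 16.6 to 41.5 CPM with Tranilast plus cisplatin, of which COL1A1 was the member with enough counts to be tested, and none was at 0 in all 9 libraries. Among 6 leukocyte markers PTPRC, which spans 119 kb, fell (70.1, 64.5 and 75.4 CPM against 6.70, 21.0 and 22.1 CPM, -2.04 ± 0.40, adjusted p = 0.00379), while CD3E and ITGAM had 0 counts and CD68 and LYZ had at most 8 counts in any of the 9 libraries. With cisplatin alone COL1A1 and PTPRC were at 1.55 ± 0.36 and -3.38 ± 0.47 against untreated cells (adjusted p = 0.00218 and 3.44e-05). In the direct test they were at 0.09 and 1.34 (adjusted p = 0.874 and 0.0553).

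TGF-beta and YAP target genes had 3 lower and 0 higher of 19 members (median -0.30; 7 lower and 1 higher on the 6 libraries). LTBP1, which holds latent TGF-beta in the matrix and spans 453 kb, was at 9.88, 10.6 and 10.9 CPM against 0.372, 1.36 and 1.13 CPM (-3.32 ± 0.56, adjusted p = 0.00127). ID3, an inhibitor of helix-loop-helix factors, fell by 1.04 ± 0.31 (adjusted p = 0.0432), a call that was lost in 8 alternatives (adjusted p 0.146 with library sizes alone and 0.065 to 0.186 without 1 of the 6 libraries). The count of 3 became 1 to 2 without an untreated or a Tranilast plus cisplatin library. With cisplatin alone 9 of the 19 were lower and 2 higher than in untreated cells (median -0.79). The direct test found 2 higher and 0 lower with Tranilast plus cisplatin (median 0.43, and 0.85 with library sizes alone). WWTR1, which encodes TAZ, was at -0.46 ± 0.19 (adjusted p = 0.148).

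Immediate early and AP-1 genes are switched on within minutes by growth factors and stress. Of 22 tested members 4 were higher and 0 lower (median 0.38; 10 higher and 3 lower on the 6 libraries), against 14 higher and 0 lower with cisplatin alone (median 1.09). Besides NR4A2 they were DUSP1, a phosphatase of MAP kinases (1.28, 2.01 and 1.27 CPM against 6.33, 5.45 and 5.42 CPM, 1.87 ± 0.42, adjusted p = 0.00931), NR4A3, which had at most 3 reads in any untreated library and was at 10.4, 4.36 and 4.96 CPM with Tranilast plus cisplatin (adjusted p = 0.0129), and IER5, which was at 44.3, 40.3 and 48.6 CPM against 72.6, 64.1 and 65.2 CPM (0.60 ± 0.18, adjusted p = 0.0485). The call of IER5 was lost in 11 alternatives (adjusted p 0.0981 to 0.202 without 1 of the 6 libraries), and the count of 4 became 1 to 3 without an untreated library and 2 to 3 without a Tranilast plus cisplatin library. In the direct test 10 members were lower and 1 higher than with cisplatin alone (median -0.70, and -0.25 with library sizes alone). IER5 was at 198, 240 and 162 CPM with cisplatin alone, a difference of -1.57 ± 0.18 (adjusted p = 0.000404).

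Targets of ATF4 and the integrated stress response are switched on when translation initiation is slowed. Of 28 members 1 was lower and 0 higher than in untreated cells (median -0.02), where 5.66% of all genes tested were lower, and 3 were lower with DESeq2 and with limma-voom, 4 at an unadjusted p under 0.05, and 8 lower and 3 higher on the 6 libraries. By the same test on all libraries 23 were lower and 0 higher with cisplatin alone (median -1.31), and the direct test found 16 higher and 0 lower with Tranilast plus cisplatin (median 0.93, and 1.39 with library sizes alone). The member that fell was ATF5 (176, 183 and 237 CPM against 71.1, 111 and 107 CPM, -1.04 ± 0.25, adjusted p = 0.0159). The biosynthetic enzymes PSAT1 and ASNS, of serine and asparagine synthesis, were at -0.63 ± 0.19 and -0.72 ± 0.23, and the stress protein NUPR1 at -1.05 ± 0.37 (adjusted p = 0.051, 0.0662 and 0.0902). PSAT1 was higher than with cisplatin alone, with 191, 179 and 214 CPM against 117, 77.0 and 133 CPM (0.84 ± 0.20, adjusted p = 0.00762).

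Cytosolic heat shock chaperones had 0 calls among 17 members with edgeR (median 0.03), 2 higher and 1 lower at an unadjusted p under 0.05, 0 higher and 1 lower with DESeq2 and with limma-voom, and 6 higher and 4 lower on the 6 libraries. The smallest adjusted p values were 0.0512 for DNAJB6, 0.121 for AHSA1, 0.156 for DNAJB4 and 0.271 for DNAJB1. HSPA1A and HSPA1B had 0 counts in all 9 libraries, and HSPB1, HSPB8 and CRYAB were below the filter. These listed genes could not be tested. Among 23 NRF2 and glutathione genes HMOX1, heme oxygenase (43.4, 50.1 and 47.3 CPM against 120, 107 and 90.0 CPM, 1.17 ± 0.24, adjusted p = 0.00566), and FTL, the ferritin light chain (0.89 ± 0.21, adjusted p = 0.0121), were higher, and ME1, malic enzyme, was lower (-1.06 ± 0.29, adjusted p = 0.0309), with SRXN1 at 0.57 ± 0.18 (adjusted p = 0.0631). The median of that list was 0.04, with 8 higher and 3 lower on the 6 libraries, and ME1 lost its call in 7 alternatives and FTL in 4. The metallothionein list had 4 tested members, MTF1, SLC30A1, MT2A and MT1F, whose libraries all overlapped between the groups, with log2 fold changes of 0.24, 0.22, 0.03 and -0.02, and 0 passed with edgeR, at an unadjusted p under 0.05, with DESeq2 or with limma-voom.

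Of 14 tested genes that handle platinum and copper 0 were higher and 1 lower (median -0.05; 3 higher and 4 lower on the 6 libraries). The member that fell was ATP7A, a copper-transporting ATPase, at 7.33, 7.77 and 9.93 CPM in untreated cells and 1.49, 2.45 and 3.84 CPM with Tranilast plus cisplatin (-1.61 ± 0.48, adjusted p = 0.0454). That call was lost in 10 alternatives, among them library sizes alone (adjusted p = 0.108) and the omission of any 1 of the 6 libraries from the fit on all libraries (adjusted p 0.0668 to 0.219), and ATP7A overlaps PGK1 on the same strand. With cisplatin alone ATP7A was also lower than in untreated cells (-2.24 ± 0.57, adjusted p = 0.00438). The direct test between the 2 treated groups gave 0.63 ± 0.64 (adjusted p = 0.502). ATP7B, the ATPase most closely tied to cisplatin resistance, had 1 to 3 counts in the untreated libraries and 3 to 4 in the treated ones and could not be tested. SLC31A1, the copper importer CTR1, was at 142, 148 and 165 CPM against 144, 156 and 143 CPM (-0.04 ± 0.27, adjusted p = 0.963), and the groups overlapped. The copper chaperones ATOX1 and COX17 and the copper enzyme SOD1 had log2 fold changes of -0.21 ± 0.40, -0.71 ± 0.44 and -0.02 ± 0.29 against untreated cells (adjusted p = 0.83, 0.388 and 0.983). Against cisplatin alone they were lower by -1.81 ± 0.41, -1.47 ± 0.45 and -1.16 ± 0.30 (adjusted p = 0.00604, 0.0267 and 0.011), and with library sizes alone by -1.26, -0.91 and -0.64, where COX17 lost the call (adjusted p = 0.0795). In the direct test 6 of the 14 members were lower and 1 higher. Of all genes tested 11.6% were lower in it, and of the genes under 10 kb 29%. ATOX1 illustrates the order of the groups, with 66.0, 49.8 and 47.1 CPM in untreated cells, 264, 148 and 85.0 CPM with cisplatin alone and 56.6, 52.9 and 32.0 CPM with Tranilast plus cisplatin. COMMD1, which binds copper transporters and spans 259 kb, was at 28.1, 25.03 and 29.5 CPM against 7.07, 7.36 and 8.12 CPM (-1.86 ± 0.58, adjusted p = 0.0557). The remaining members were SCO2 and SCO1, which deliver copper to cytochrome oxidase (0.66 and 0.39, adjusted p = 0.0711 and 0.303), the assembly factors COX11 and COX19 (-0.36 and -0.07, adjusted p = 0.36 and 0.88), CCS, the chaperone of SOD1 (0.35, adjusted p = 0.422), the subunits LRRC8D and LRRC8A of the volume-regulated channel that admits cisplatin (-0.65 and 0.38, adjusted p = 0.288 and 0.556), and SLC47A1, an exporter of organic cations (-0.03, adjusted p = 0.98). SLC31A2, ABCC2, SLC22A2 and SLC22A3 were below the filter.

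The gene groups of the translation and energy machinery had no calls against untreated cells and many with cisplatin alone. For the ribosomal, mitochondrial genome and proteasome lists the counts below of 0 by edgeR were also 0 at an unadjusted p under 0.05 and with DESeq2 and limma-voom, and for the respiratory chain list they were 0 higher and 3 lower at an unadjusted p under 0.05 and 0 by both other tools. Of 78 cytosolic ribosomal protein genes 0 were called (median -0.12; 2 higher and 16 lower on the 6 libraries), while 75 were higher with cisplatin alone (median 1.18) and 77 were lower with Tranilast plus cisplatin than with cisplatin alone (median -1.27, and -0.75 with library sizes alone). RPL23A, of the large subunit, was at 1109, 1052 and 1181 CPM in untreated cells and 879, 927 and 775 CPM with Tranilast plus cisplatin (-0.37 ± 0.31, adjusted p = 0.534), against 3568, 1888 and 1481 CPM with cisplatin alone. RPL4, RPL3 and RPL10A were at -0.35, -0.35 and -0.39. Of 76 nuclear genes of the respiratory chain and ATP synthase 0 were called (median -0.20; 2 higher and 26 lower on the 6 libraries), with ATP5PD at -1.06 ± 0.42 (adjusted p = 0.139), NDUFS4 at -0.73, ATP5MC2 at -0.68 and ATP5PB at -0.49. Of 15 transcripts of the mitochondrial genome 0 were called (median 0.05; 5 higher and 0 lower on the 6 libraries). MT-CO1, a core subunit of cytochrome oxidase, was at 611, 770 and 765 CPM in untreated cells, 6138, 4142 and 2078 CPM with cisplatin alone and 1153, 1069 and 948 CPM with Tranilast plus cisplatin (0.56 ± 0.37 against untreated, adjusted p = 0.411). MT-ND6, MT-ND1 and MT-CYB were at 0.78, 0.66 and -0.27. Proteasome genes had 0 calls of 31 (median 0.02), and 4 higher and 3 lower on the 6 libraries, with ADRM1, PSMD3, PSMD1 and PSMA4 at 0.46, 0.32, -0.38 and -0.32. Of 22 cholesterol synthesis genes EBP and MVD were higher (0.71 ± 0.20 and 0.82 ± 0.25, adjusted p = 0.0322 and 0.0459), calls that were each lost in 7 alternatives, and the count of 2 became 0 without an untreated library and 0 to 1 without a Tranilast plus cisplatin library. The median of this list was 0.22, and on the 6 libraries 9 were higher and 1 lower. With DESeq2 and limma-voom 5 and 4 were higher and 0 lower. HSD17B7 and MVK were at 1.23 and 0.80 (adjusted p = 0.0502 and 0.0511). TERC, SNORD3A and RMRP, RNAs without a poly(A) tail, overlapped between the groups (0.39, -0.50 and 0.30), with 0 calls by edgeR, DESeq2 and limma-voom and 0 at an unadjusted p under 0.05. SNORD3A and RMRP were at 7.55 to 88.5 and 7.55 to 94.6 CPM with cisplatin alone, where replicate 1 was highest, and at 1.12 to 1.91 and 2.73 to 3.84 CPM with Tranilast plus cisplatin.

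**Figure D5:**
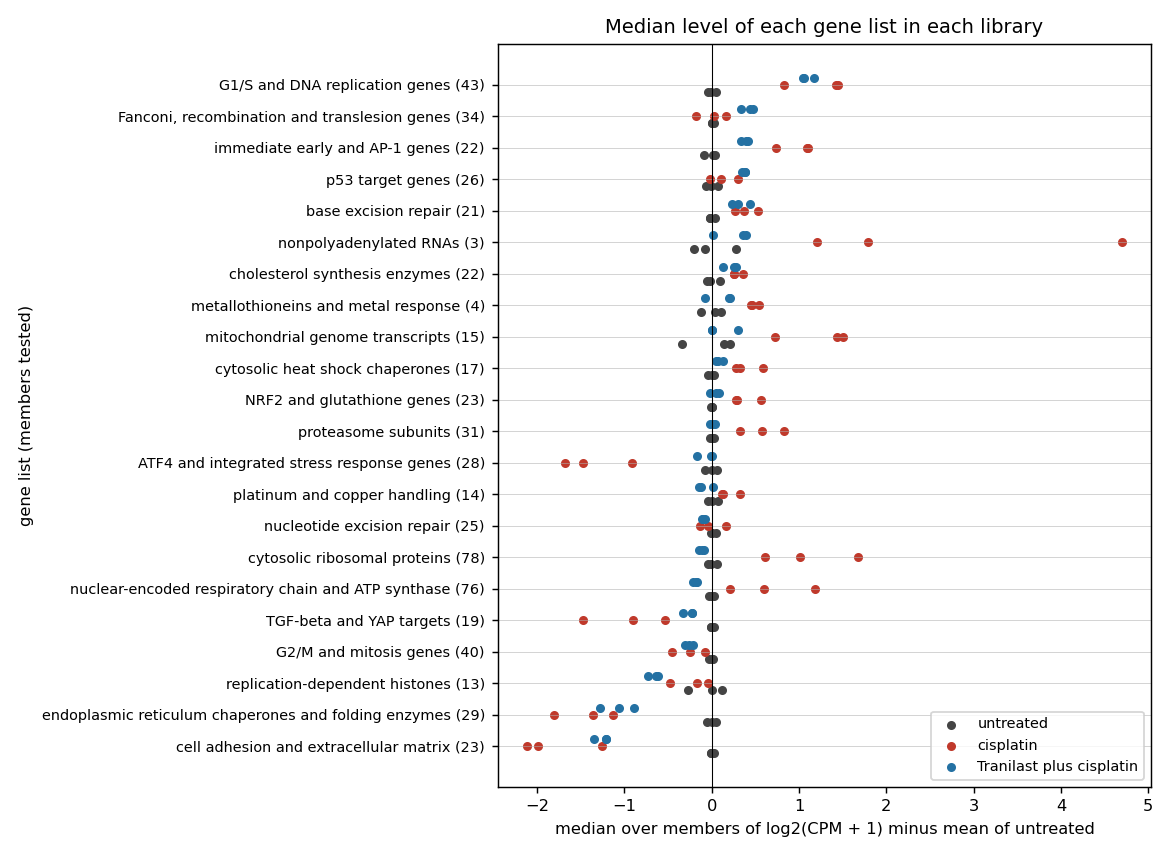
For each of 22 gene lists the median over its tested members of log2(CPM + 1), minus the mean of the untreated libraries, is shown for each library of the untreated (grey), cisplatin (red) and Tranilast plus cisplatin (blue) groups. The Tranilast plus cisplatin points lie between 1.05 and 1.17 for the G1/S and DNA replication genes and between -1.27 and -0.89 for the chaperones, close to 0 for ribosomal protein genes, where the cisplatin points lie between 0.61 and 1.68.

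Genes that passed the test against both untreated cells and cisplatin alone fell into 4 sets. Those with Tranilast plus cisplatin above both were led by CDKN1A, MPP2 and WDR76. WDR76, a WD-repeat protein linked to the DNA damage response, was at 23.6, 20.1 and 19.9 CPM in untreated cells, 32.5, 31.9 and 35.0 CPM with cisplatin alone and 65.9, 51.0 and 51.2 CPM with Tranilast plus cisplatin (1.40 ± 0.21 and 0.75 ± 0.21, adjusted p = 0.000568 and 0.0162). MPP2, a membrane-associated guanylate kinase, was at 12.8, 9.21 and 8.15 CPM, 9.52, 14.7 and 9.93 CPM, and 20.5, 17.99 and 19.9 CPM, but its call against cisplatin alone (adjusted p = 0.0499) was lost with RLE factors (adjusted p = 0.0631). Those below both were led by LPP, GMDS and EXOC4, with differences from cisplatin alone of -2.16 ± 0.74, -2.07 ± 0.71 and -1.90 ± 0.49 (adjusted p = 0.043, 0.0446 and 0.0114), of which the first and the second were lost with library sizes alone (adjusted p = 0.0677 and 0.0795). Cisplatin replicate 1 was the highest library of its group for all 3, at 21.3, 32.5 and 40.9 CPM.

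Above untreated and below cisplatin alone were NR4A2, AL645608.7 and HBEGF. HBEGF, a ligand of the EGF receptor, was at 3.83, 2.01 and 1.02 CPM in untreated cells, 45.9, 27.5 and 19.5 CPM with cisplatin alone and 7.44, 8.995 and 5.64 CPM with Tranilast plus cisplatin (1.70 ± 0.44 and -2.06 ± 0.35, adjusted p = 0.0224 and 0.00192). The long noncoding RNA AL645608.7 was at 1.77 ± 0.44 against untreated and -2.79 ± 0.34 against cisplatin alone. Below untreated and above cisplatin alone were FAM129A, ETV6 and ABCB1. ABCB1, the P-glycoprotein that pumps many drugs out of cells, was at 35.7, 30.2 and 32.8 CPM in untreated cells, 1.68, 5.396 and 2.38 CPM with cisplatin alone and 6.70, 12.5 and 14.4 CPM with Tranilast plus cisplatin (-1.52 ± 0.32 and 1.84 ± 0.43, adjusted p = 0.00606 and 0.00682). FAM129A, a stress-induced regulator of translation, and ETV6, an ETS-family repressor, were at -1.78 ± 0.43 and -1.53 ± 0.33 against untreated cells and at 1.61 ± 0.47 and 1.71 ± 0.44 against cisplatin alone. These 3 genes span 184 to 246 kb, and in each the libraries of the 3 groups did not overlap, with untreated highest and cisplatin alone lowest.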

How the data were processed

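RNA from IGROV-CP20 cells was measured by QuantSeq 3′ mRNA sequencing in 15 libraries, 3 for each of 5 conditions, and groups were taken from the sample labels. The deposited values are raw read counts per Ensembl gene, made by the authors with STAR 2.3.0 and HTSeq on hg19 per the labels' processing notes; the strand setting and annotation are not given in the sources used here. Symbols, spans and positions came from GENCODE 29 on GRCh38, which held 45776 of 47634 gene rows, and promoters from RefSeq GRCh38.p14; no coordinates were converted. The unmatched genes held 0.50% to 0.72% of counts.

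Genes were kept by filterByExpr on the 15 libraries (11113 genes) and scaled by TMM factors. The edgeR quasi-likelihood test was fitted on all 15 libraries with 1 coefficient per condition and no covariate, and p-values were adjusted by Benjamini-Hochberg at 0.05. R 4.3.3, edgeR 4.0.16, limma 3.58.1, DESeq2 1.42.0, Python 3.11.15, numpy 2.4.6, pandas 2.3.3 and matplotlib 3.10.9 were used. The members of the comparison and the gene lists were chosen with earlier results of these data known. Genes named were the 6 largest increases and decreases with a mean of at least 3 log2 CPM (prior count 2), an adjusted p under 0.05 and no overlap of the 3 against 3 libraries; the 4 smallest adjusted p values of each list; all platinum and copper genes; and the 3 leading genes per direction that passed against both untreated cells and cisplatin alone, ranked by the smaller change, at the same level minimum. Others were named where a count was small or as markers. A few genes that these rules name are not reported here.

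The replicates are described as biological replicates. Every pair within a group differed by more than sampling noise, so none was merged. A count of 0 allows up to 8.53e-05% to 0.000139% of a library (3 counts), and such limits cover counting error only. On simulated counts with 100 genes changed 2-fold and 100 changed 4-fold, 47 and 100 were found, and 7 unchanged genes were called among 10684 tested. The simulation gave all libraries the same spread and changed only genes of higher counts, so it does not cover the unequal spread of these groups. Alternatives were other scalings, filters, tools and thresholds, a replicate block, fits on fewer libraries and the omission of each library.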

Additional observations from a re-analysis of the deposited data

How the results depend on the processing

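The counts against untreated cells kept the excess of decreases in every alternative. Of 271 higher and 629 lower genes, 99 and 259 passed an adjusted p of 0.01, 176 and 396 passed with library sizes alone, and 1869 and 2119 on the 6 libraries (1950 and 2175 with a replicate block), while DESeq2 gave 408 higher and 775 lower and the likelihood ratio test 458 and 936. Omitting 1 library gave 88 to 566 higher and 201 to 1035 lower. On the 6 libraries, omitting Tranilast plus cisplatin library 1, 2 or 3 gave 1506, 1531 or 1790 higher and 1839, 1866 or 2053 lower, and omitting untreated library 1, 2 or 3 gave 1619, 1577 or 1586 higher and 1864, 1826 or 1823 lower. The cause of the difference between fits on 15 and 6 libraries was not tested. Cisplatin alone against untreated gave 1403 higher and 1709 lower at 0.01 and 1019 higher and 3351 lower with library sizes alone, against 2345 and 2622. The direct test against cisplatin alone (1169 and 1293) gave 407 and 491 at 0.01, 2582 and 397 with library sizes alone, and 471 to 1423 and 569 to 1511 with 1 library omitted. The 56.2% of genes over 300 kb that were lower became 27.2% without a filter, where more genes of few counts were tested, 83.8% on the 6 libraries, 85.1% there with a block, and 21.5% to 71.2% with 1 library omitted.

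Of 61 named genes called against untreated cells, 35 kept the call in all alternatives and 26 lost it at least once, and none changed sign. The replicate numbers did not pair the libraries: deviations of same-numbered untreated and Tranilast plus cisplatin libraries correlated at -0.0233, 0.0198 and 0.0404, 2 of 6 libraries correlated best with their own number, and the replicate block gave 269 higher and 589 lower genes. At these depths ATP7B, with at most 4 counts in any of the 9 libraries, could not be tested.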
